A study of Mus musculus with 60 samples.

Results

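The metabotropic glutamate receptors are G protein-coupled receptors for glutamate, the main excitatory transmitter of the cortex. Here they were taken as Grm2, Grm3, Grm4, Grm5, Grm7 and Grm8, and were measured as the probe sets whose platform annotation named 1 of these symbols alone. There were 9 such probe sets for the 6 genes, of 34945 probe sets with 1 gene name and 18193 genes in all. Each gene was represented by its brightest probe set: 1435607_at for Grm2, 1430136_at for Grm3, 1457299_at for Grm4, 1455272_at for Grm5, 1443119_at for Grm7 and 1421530_a_at for Grm8. The 3 others, 1 of Grm5 and 2 of Grm7, served as a check. All 6 genes were among the 11886 that passed the filter on low values, a log2 intensity of at least 4 in at least 6 arrays. A further probe set, 1431344_at, named Grm2 together with another gene and was not used. It lay at 2.07 to 2.69 over the 60 arrays, near the floor of 2.07.

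The 60 Affymetrix arrays were made from cortex of males of 30 inbred mouse strains, with 1 array per strain for fluoxetine and 1 for water. Fluoxetine, a blocker of serotonin reuptake, was given by mouth at 18 mg/kg per day for 21 days, and the water group received 0 mg/kg. Every array carried pooled RNA of 3 mice of 1 strain and treatment, so no animal was measured singly. The mice were 10 to 11 weeks old by the sample labels and 9 to 10 weeks old at behavioural testing by the design text. Each p-value therefore rests on how the arrays of 30 strains spread, which mixes strain, pool and technical differences. Array medians lay between 39.1 and 43.1 on the linear intensity scale, and pairs of arrays had correlations of 0.99 to 0.999 across the 18193 genes. Of 12 listed markers of cortical excitatory neurons, 11 had a probe set that named them alone, and all 11 passed the filter. Their mean log2 intensity was 11.21 to 11.54 in fluoxetine arrays and 11.22 to 11.51 in water arrays.

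Metabotropic receptors fall into 3 groups by sequence and signalling. Group I, here Grm5, couples to Gq and phospholipase C and sits mainly on the postsynaptic side, where Homer proteins tether it. Group II, Grm2 and Grm3, and group III, Grm4, Grm7 and Grm8, couple to Gi/o, lower cyclic AMP and act mostly as presynaptic brakes on transmitter release. Grm3 is also made by astrocytes, and it responds to the peptide N-acetylaspartylglutamate.

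The reference sequences just upstream of both group II genes are shown because, on the probe sets used, both of the largest within-strain differences belonged to them. They are the 250 bases before each gene's start, from RefSeq on GRCm38.p6, written 5′ to 3′ on the minus strand, with capitals at GC boxes (GGGCGG, searched on both strands). Grm2 lies at chr9:106656110-106656359 and Grm3 at chr5:9725353-9725602.
Grm2: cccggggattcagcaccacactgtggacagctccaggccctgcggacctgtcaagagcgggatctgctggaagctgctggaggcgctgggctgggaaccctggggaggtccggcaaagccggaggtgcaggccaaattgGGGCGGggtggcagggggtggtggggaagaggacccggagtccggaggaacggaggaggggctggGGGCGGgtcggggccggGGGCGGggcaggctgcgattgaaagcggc
Grm3: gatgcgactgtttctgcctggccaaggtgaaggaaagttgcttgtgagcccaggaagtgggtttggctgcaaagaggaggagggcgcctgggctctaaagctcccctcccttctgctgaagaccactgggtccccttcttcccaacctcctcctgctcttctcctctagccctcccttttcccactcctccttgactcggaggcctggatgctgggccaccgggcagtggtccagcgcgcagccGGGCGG
The Grm2 window was 71.2% G and C and the Grm3 window 62.4%, against a median of 52.4% over 32851 RefSeq windows of this length. Grm2 held 3 GC boxes and Grm3 held 1, and 32.7% of all windows held at least 1. A TATA box (TATAAA, in 12.4% of windows), a cAMP response element (TGACGTCA, in 1.55%) and an E-box (CACGTG, in 6.02%) were found in neither. These letters are of the reference strain, and the arrays measured no promoter.

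The arrays of 2 strains stood apart in ways that touch the results. In P/J, the median absolute difference between the fluoxetine and the water array over all tested genes was 0.181 on the log2 scale, the largest of the 30 strains, whose median was 0.092. Markers of the olfactory bulb were also higher in its water array: the tested markers, Cdhr1 and Doc2g, averaged 6.79 in the fluoxetine array and 10.46 in the water array. Over all strains this average ran from 3.97 to 8.09 with fluoxetine and from 3.89 to 10.46 with water, and the other 4 markers of that list (Eomes, Th, Tbx21 and Sp8) were below the filter. Doc2g stood at 4.58 with fluoxetine and 9.98 with water in P/J, against a median of 4.58 in either group. Cdhr1 was high in both P/J arrays, at 9.01 with fluoxetine and 10.94 with water. Its group medians were 4.53 with fluoxetine and 4.23 with water. In RIIIS/J, Grm3 itself stood apart, as described below with its values. Receptor differences with fluoxetine that rest on either strain are given with and without it. Counts and medians of the marker and pathway lists, and the differences of most genes in them, are given with both strains kept.

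Fluoxetine changed the expression of none of the 6 receptors past the threshold, an adjusted p of 0.05 in limma with Benjamini-Hochberg adjustment over all tested genes and strain as a block. Across all genes 0.0589% were called in this comparison. At an unadjusted p under 0.05 there was 1 of 6, Grm2, where 15.3% of all genes lay. As signed differences, fluoxetine minus water, 3 receptors were above 0 and 3 below, with a median of 0.0043 on the log2 scale, against -0.0029 over all tested genes. Between strains 5 of 6 receptors passed the limma F-test, all but Grm2, which is near the share of 88.3% over all genes. In bulk tissue, fewer cells of a type and less RNA per cell cannot be told apart, and this holds for every value that follows.

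**Figure D1:**
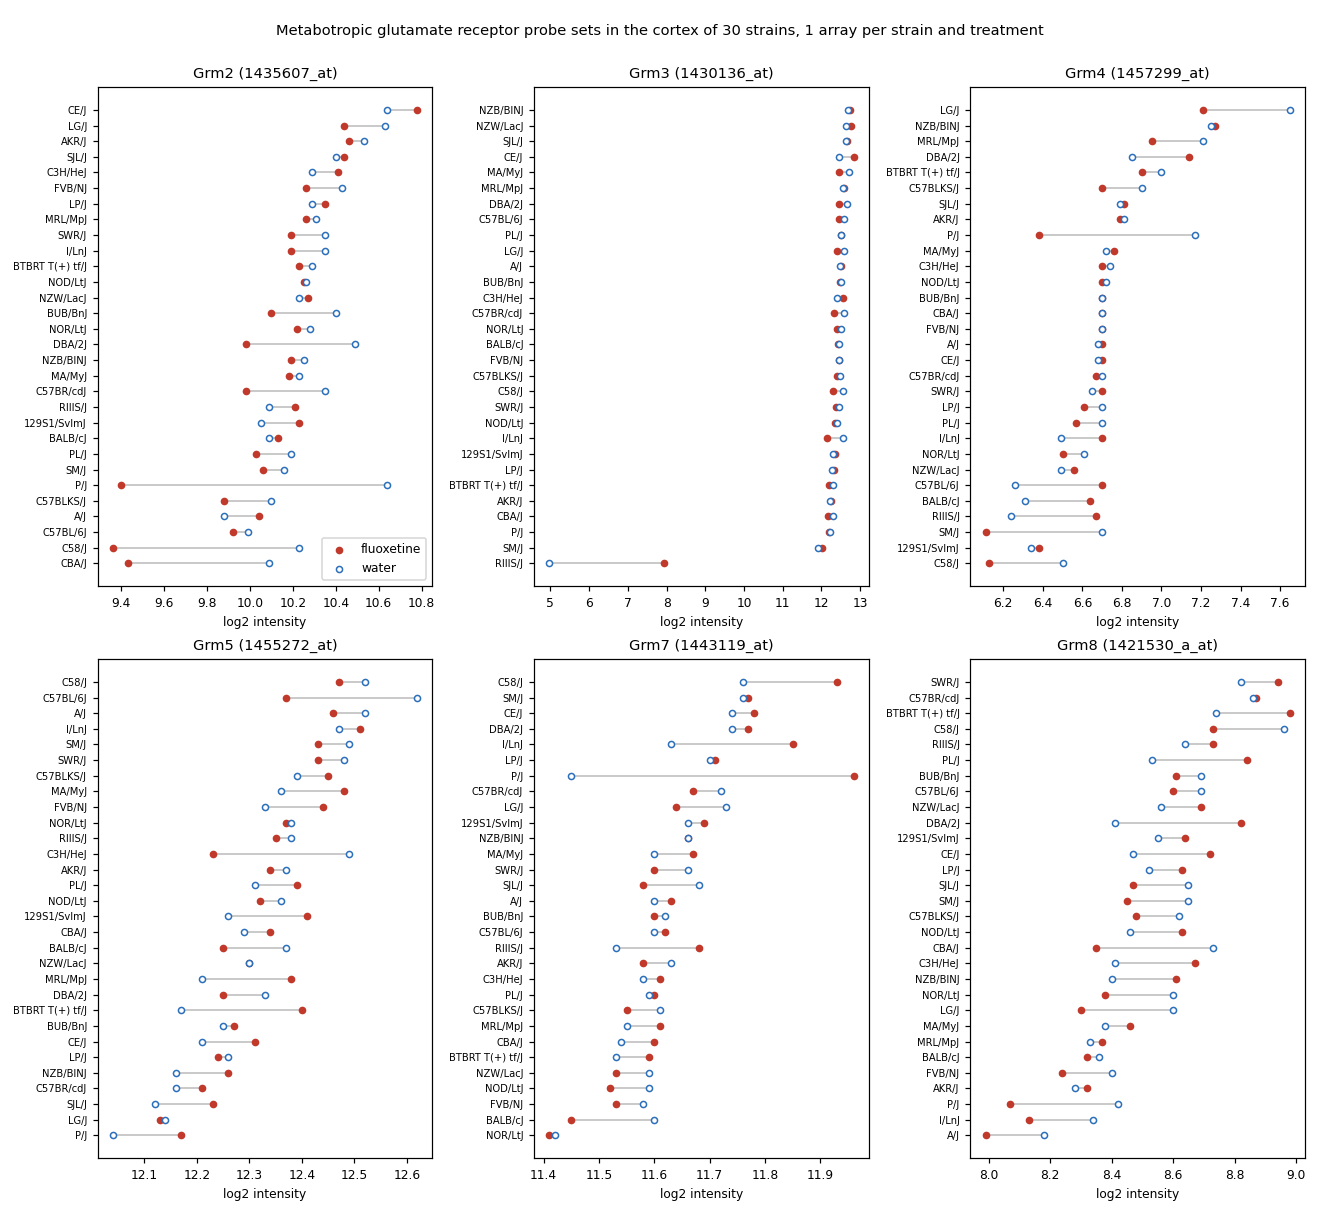
Log2 intensity of the probe set used for each receptor (horizontal axes), with 1 row per strain ordered by strain mean, filled points for fluoxetine and open points for water. P/J has the longest line in the panels of Grm2, Grm4 and Grm7, and RIIIS/J lies far left of the other 29 strains in the panel of Grm3.

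Grm2, the presynaptic group II receptor, had the largest mean difference in size of the 6. Its log2 intensity was 9.36 at the lowest, 10.19 at the median and 10.78 at the highest over the 30 fluoxetine arrays, against 9.88, 10.28 and 10.64 over the 30 water arrays. The water range lay inside the fluoxetine range, and the fluoxetine arrays of C58/J, P/J, CBA/J and, barely, C57BLKS/J lay below every water array. The mean was 10.13 ± 0.308 with fluoxetine and 10.28 ± 0.186 with water (SD, n = 30 each). That is a within-strain difference of -0.15 (SE 0.055; 95% interval -0.27 to -0.04), or -10.1%, and it was below 0 in 21 of 30 strains. It did not pass the adjustment (limma with Benjamini-Hochberg adjustment, adjusted p = 0.170; unadjusted p = 0.00863).

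A few strains carried most of the Grm2 difference. In P/J it was 9.40 with fluoxetine and 10.64 with water, a difference of -1.23, and the water value was the highest of its group. C58/J followed with 9.36 under fluoxetine and 10.23 under water, and CBA/J with 9.43 under fluoxetine and 10.09 under water. DBA/2J came next with 9.98 under fluoxetine and 10.49 under water. The median over strains was therefore only -0.07, and the largest difference above 0, in 129S1/SvImJ, was 0.18. The 6 strains with the lowest Grm2 differences (P/J, C58/J, CBA/J, DBA/2J, C57BR/cdJ and BUB/BnJ) all ranked among the 7 with the largest median absolute difference over all genes. Without P/J the mean difference was -0.12, and over the fits that left out 1 strain it ran from -0.17 to -0.12 with adjusted p of 0.133 to 0.282 in limma.

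Markers of glial cells, interneurons and neighbouring brain regions also differed in these arrays. Over all strains, the 10 tested oligodendrocyte markers were all below 0 with a median difference of -0.22. Of these, 0 passed the limma adjustment and 9 had an unadjusted p under 0.05, where 15.3% of all genes had one. Of 9 oligodendrocyte precursor markers 4 had one (2 above 0, 7 below; median -0.06). Of 11 GABA interneuron markers 5 had one (6 above 0, 5 below; median 0.0047), and limma called 0 in either list. In P/J, 10 of 11 listed oligodendrocyte markers were tested and averaged 9.22 with fluoxetine and 10.1 with water, where the group ranges were 9.22 to 11.07 with fluoxetine and 9.97 to 11.03 with water. The 10 astrocyte markers averaged 12.0 with fluoxetine and 11.61 with water in P/J (group ranges 11.38 to 12.0 with fluoxetine and 11.19 to 11.77 with water). Most of this came from Gfap, the astrocyte filament protein, which stood at 12.73 with fluoxetine and 9.92 with water there. Aqp4 differed by 0.97 in P/J, and the remaining astrocyte markers by -0.27 (Slc4a4) to 0.22 (Aldh1l1). The 7 thalamus markers averaged 7.03 with fluoxetine and 7.89 with water in P/J. Much of this came from Calb2, which differed by -4.06 there. Tnnt1 differed by -1.07, Slc17a6 by -0.83, Rora by -0.71 and Lef1 by -0.15, while Tcf7l2 differed by -0.01 and Prkcd by 0.79. The 11 tested cortical excitatory markers differed by -0.02 on average in P/J, with members in both directions. Slc17a7 differed by 1.09 and Cux2 by 0.95, against -0.8 for Foxp2 and -0.57 for Rorb. Microglia markers, 8 of 9 tested, averaged 9.66 with fluoxetine and 9.07 with water in P/J (group ranges 8.65 to 9.66 with fluoxetine and 8.60 to 9.35 with water). Striatum markers, 6 of 9 tested, averaged 7.84 with fluoxetine and 7.55 with water there (group ranges 7.25 to 7.91 with fluoxetine and 7.21 to 8.79 with water). The striatum markers did not move together in P/J: Rgs9 differed by 2.04 and Ppp1r1b by 1.56, but Penk by -1.87 and Gpr6 by -0.75. The microglia and striatum averages had their highest differences of the 30 strains in P/J, and the cerebellum markers are given below with Grm4. The interneuron average had its lowest there, -0.11, with members from -1.14 (Dlx5) to 0.64 (Npy). Hippocampus markers, 5 of 7 tested, differed by 0.22 on average in P/J, from -0.32 (Zbtb20) to 1.14 (Wfs1). The precursor average differed by 0.08 in P/J. In C58/J the oligodendrocyte average differed by -0.67, the astrocyte average by 0.39 and the microglia average by 0.14. Of the region averages in C58/J, olfactory bulb differed by 0.24, hippocampus by 0.22, striatum by -0.09, thalamus by -0.21 and cerebellum by -0.24. In CBA/J the oligodendrocyte average differed by 0.19, the astrocyte average by -0.0038 and the microglia average by 0.15. Of the region averages in CBA/J, olfactory bulb differed by 0.37, hippocampus by 0.025, cerebellum by -0.0051, thalamus by -0.03 and striatum by -0.26. In DBA/2J the oligodendrocyte average differed by -0.17, the astrocyte average by 0.13 and the microglia average by 0.46. Of the region averages in DBA/2J, striatum differed by 0.28, hippocampus by 0.25, olfactory bulb by 0.22, cerebellum by 0.20 and thalamus by -0.12. The part of these markers in the Grm2 difference was not tested.

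Both arrays of a strain resembled each other least for Grm2 among the 6. Its strain means ran from 9.76 in CBA/J, with C58/J and C57BL/6J next, to 10.71 in CE/J, above LG/J and AKR/J, a 1.93-fold span on the linear scale. No 2 strains adjacent in this order differed by more than 2 standard errors of their difference. The intraclass correlation of a strain's arrays was 0.247, below the 0.344 to 0.876 of the other receptors and against a median of 0.593 over all tested genes. The limma F-test between strains gave F = 1.78 and an adjusted p of 0.0637, but without P/J it gave F = 2.98 and an adjusted p of 0.00277.

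**Figure D2:**
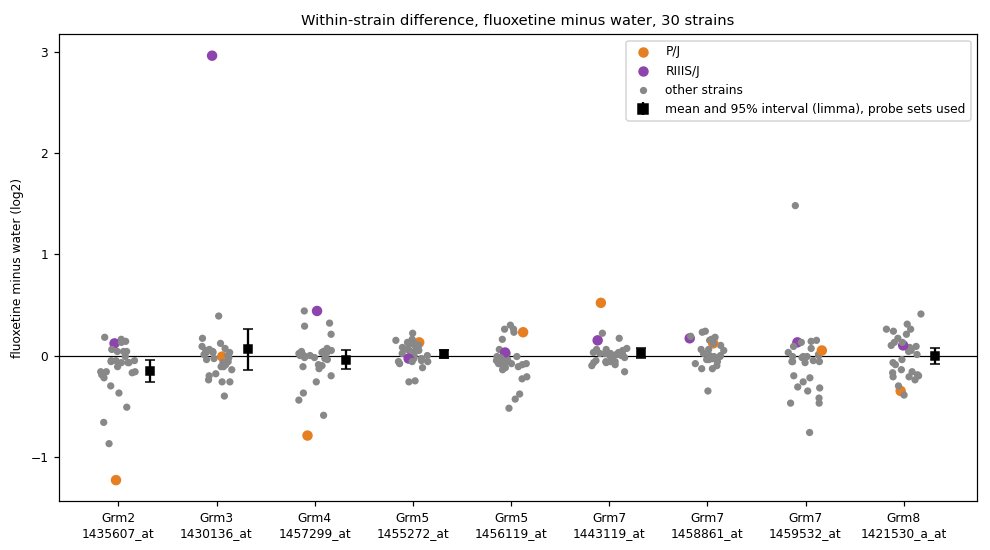
Fluoxetine minus water in log2 units (vertical axis) for each of the 9 probe sets, with 1 point per strain and, for the 6 probe sets used, the limma mean with its 95% interval. The Grm2 interval, -0.27 to -0.04, lies below 0, and the point at 2.96 is Grm3 in RIIIS/J.

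Grm3, the group II receptor shared by neurons and astrocytes, was very low in 1 strain. Its only probe set read 7.93 in the fluoxetine array and 4.97 in the water array of RIIIS/J, which are linear intensities of 243 with fluoxetine and 31.3 with water. In the other 29 strains it lay between 12.02 and 12.83 with fluoxetine and between 11.92 and 12.70 with water. No RIIIS/J array came near these ranges: the RIIIS/J strain mean of 6.45 was 5.52 log2 units, or 45.9-fold, below that of SM/J, the next lowest at 11.97. Both RIIIS/J values were above the floor of 2.07. Among all tested genes 12 had a single strain that lay at least 5 log2 units below every other, and in 2 of them, Grm3 included, that strain was RIIIS/J.

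Among the other 29 strains Grm3 varied about as much as the median gene, whose SD of strain means was 0.161. The highest strain means belonged to NZB/BlNJ at 12.70, NZW/LacJ and SJL/J, and P/J stood above SM/J near the low end. The span of strain means was 6.26 log2 units with RIIIS/J and 0.73 without it, and their SD was 1.10 and 0.161. The drop to RIIIS/J was the only gap between adjacent strains that exceeded 2 standard errors, an error that includes the RIIIS/J difference itself. The SD of within-strain differences was 0.568 with RIIIS/J and 0.154 without it. This error is therefore too wide to judge the gaps among the other 29 strains. Strains differed both with RIIIS/J (limma F = 16.5, adjusted p = 4.16e-11) and without it (F = 4.45, adjusted p = 0.000119).

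The treatment difference of Grm3 took its sign from that strain. Over the groups the median was 12.41 with fluoxetine and 12.47 with water, and the mean was 12.27 ± 0.840 with fluoxetine and 12.21 ± 1.38 with water (SD, n = 30 each). The mean within-strain difference was 0.06 (SE 0.0993; 95% interval -0.14 to 0.26; limma adjusted p = 0.829), above 0 in 13 strains and below 0 in 17. RIIIS/J alone differed by 2.96, and 1 other gene differed more within that strain. Without it the mean was -0.04 (limma adjusted p = 0.534), and the lowest single difference was -0.40 in I/LnJ.

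Astrocyte markers in RIIIS/J lay within the range of the other strains. The 10 astrocyte markers averaged 11.54 with fluoxetine and 11.57 with water there, where the group ranges were 11.38 to 12.0 with fluoxetine and 11.19 to 11.77 with water. The 3' minus 5' signal of Actb, a measure of RNA length, was 1.577 in its fluoxetine array, the highest of that group, and 1.236 in its water array. That of Gapdh was -0.207 in its fluoxetine array and -0.225 in its water array. These lay inside the group ranges of -0.295 to -0.049 with fluoxetine and -0.276 to -0.018 with water. Probe sequences and strain genomes were not used here, so a lower transcript level and a poorer match of the probes to the RIIIS/J sequence cannot be told apart.

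The genes whose strain means ran most like those of Grm3 were low in the same strain. Over 30 strains these were Plekhm3 (r = 0.972), the splicing factor Sfpq (r = 0.967) and Wdr92 (r = 0.959). Sfpq had a strain mean of 4.46 in RIIIS/J, against a median of 12.2 in the others, and Plekhm3 had 4.88 against 8.72. Wdr92 had 5.01 against 7.70, so all 3 likenesses rested on that strain. When RIIIS/J was left out, a choice made after these values were seen, the genes most like Grm3 over 29 strains were Mkx (r = 0.695), Efhd1 (r = 0.659) and Fam81a (r = 0.659).

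**Figure D3:**
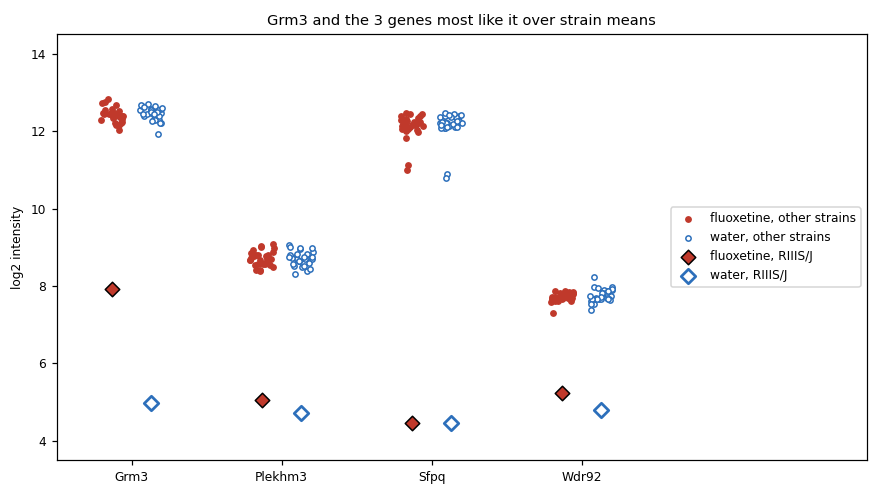
Log2 intensity (vertical axis) of Grm3 and of the 3 genes most like it over strain means, with fluoxetine left of water, circles for 29 strains and diamonds for RIIIS/J. For Grm3 the RIIIS/J diamonds lie at 7.93 (fluoxetine) and 4.97 (water), below all circles, and they are below the circles for the other 3 genes as well.

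Grm4, a group III autoreceptor known best from the cerebellum, showed no called difference with fluoxetine. Its log2 intensity ran from 6.11 over a median of 6.70 to 7.27 in fluoxetine arrays and from 6.24 over 6.70 to 7.65 in water arrays, and the groups overlapped over nearly their whole ranges. An identical value of 6.70 recurred in 18 of the 60 arrays, and 6.87% of tested genes had a value shared by at least as many, so small differences near it have little meaning. The means were 6.69 ± 0.255 with fluoxetine and 6.73 ± 0.302 with water (SD, n = 30 each), and the within-strain difference was -0.04 (SE 0.0469; 95% interval -0.14 to 0.06; limma adjusted p = 0.752). It was above 0 in 13 strains, below 0 in 14 and 0 in 3. The lowest difference was again in P/J, with 6.38 under fluoxetine and 7.17 under water, and without that strain the mean was -0.01. In P/J the cerebellum markers also differed: the tested 3 of 8 (Calb1, Cbln1 and Zic1) averaged 9.86 with fluoxetine and 10.5 with water, the lowest difference of the 30 strains. The group ranges of this average were 8.99 to 10.49 with fluoxetine and 9.05 to 10.5 with water, and Pcp2, Gabra6, Zic2, Cbln3 and En2 were below the filter. The part of these markers in the Grm4 difference was not tested. The highest Grm4 difference, 0.44, was in C57BL/6J, with RIIIS/J close behind.

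Grm4 differed between strains (limma F = 3.66, adjusted p = 0.000485). Strain means ran from 6.32 in C58/J, with 129S1/SvImJ and SM/J next, to 7.43 in LG/J, above NZB/BlNJ and MRL/MpJ, a 2.17-fold span. Its intraclass correlation was 0.549. Neighbours in the order did not differ by more than 2 standard errors. In LG/J both arrays were high, at 7.21 with fluoxetine and 7.65 with water, as were those of NZB/BlNJ, at 7.27 with fluoxetine and 7.25 with water.

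Grm7, the group III receptor of the presynaptic active zone, was nearly constant on its brightest probe set, 1443119_at. It read 11.41 at the lowest, 11.62 at the median and 11.96 at the highest in fluoxetine arrays, against 11.42, 11.61 and 11.76 in water arrays. The ranges overlapped widely, with the fluoxetine arrays of P/J, C58/J and I/LnJ, and by small margins those of CE/J, SM/J and DBA/2J, above every water array. The means were 11.65 ± 0.125 with fluoxetine and 11.62 ± 0.086 with water (SD, n = 30 each), a within-strain difference of 0.02 (SE 0.0227; 95% interval -0.02 to 0.07; limma adjusted p = 0.686) that was above 0 in 18 strains. P/J, with 11.96 under fluoxetine against 11.45 under water, had the largest, 0.52, and without it the mean was 0.0063. Thus P/J held the largest difference in size of Grm2, Grm4 and Grm7 alike, while 2.21%, 6.09% and 14.2% of all genes differed more than each of them within P/J.

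Strain means of this Grm7 probe set ran from 11.42 in NOR/LtJ, with BALB/cJ and FVB/NJ next, to 11.85 in C58/J, above SM/J and CE/J, a 1.35-fold span. The limma F-test gave F = 2.00 and an adjusted p of 0.0341. This call was weak: the adjusted p was 0.120 without NOR/LtJ, 0.0942 without C58/J, 0.0549 without SM/J, 0.0547 without CE/J and 0.0513 without DBA/2J. Without P/J it was 0.00025.

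The other probe sets of Grm7 spanned wider ranges of strain means than the one used. On 1458861_at, strain means ran from 7.0 in NOR/LtJ to 8.39 in DBA/2J, above CE/J and LG/J, a 2.62-fold span with an intraclass correlation of 0.905. In the fit of every probe set as its own feature, its limma adjusted p between strains was 4.71e-12. It correlated with the probe set used at r = 0.453 over strain means (permutation p = 0.0127, adjusted over both such pairs 0.0127; rho = 0.439, permutation p = 0.0155), and at r = 0.542 without C58/J and NOR/LtJ. Its treatment difference was 0.03 (limma adjusted p = 0.688), above 0 in 14 strains and below in 15.

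The dimmest Grm7 probe set, 1459532_at, was well above the floor in only some strains. In 8 strains, A/J, SM/J, NZW/LacJ, DBA/2J, BALB/cJ, LG/J, CE/J and NZB/BlNJ, single arrays lay between 4.33 and 6.39, and in the other 22 between 2.43 and 3.79, near the floor. Strain means left a gap of 1.51 log2 units between NZB/BlNJ above and C57BL/6J below, so the strains fell into a pair of separate clusters. It passed the filter on low values through the 16 arrays of these 8 strains, so no test between strains is given for it. Its treatment difference was -0.06 (limma adjusted p = 0.741), with 1.48 in NZB/BlNJ as its largest value.

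The probe sets of Grm7 placed some strains alike and others not. Among 30 strains ranked from low to high on 1443119_at, 1458861_at and 1459532_at, CE/J ranked 28, 29 and 24 and DBA/2J ranked 27, 30 and 27, high on each. C58/J ranked 30, 3 and 14, and BALB/cJ ranked 2, 18 and 26. Which transcripts or variants each detects was not analysed here.

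**Figure D4:**
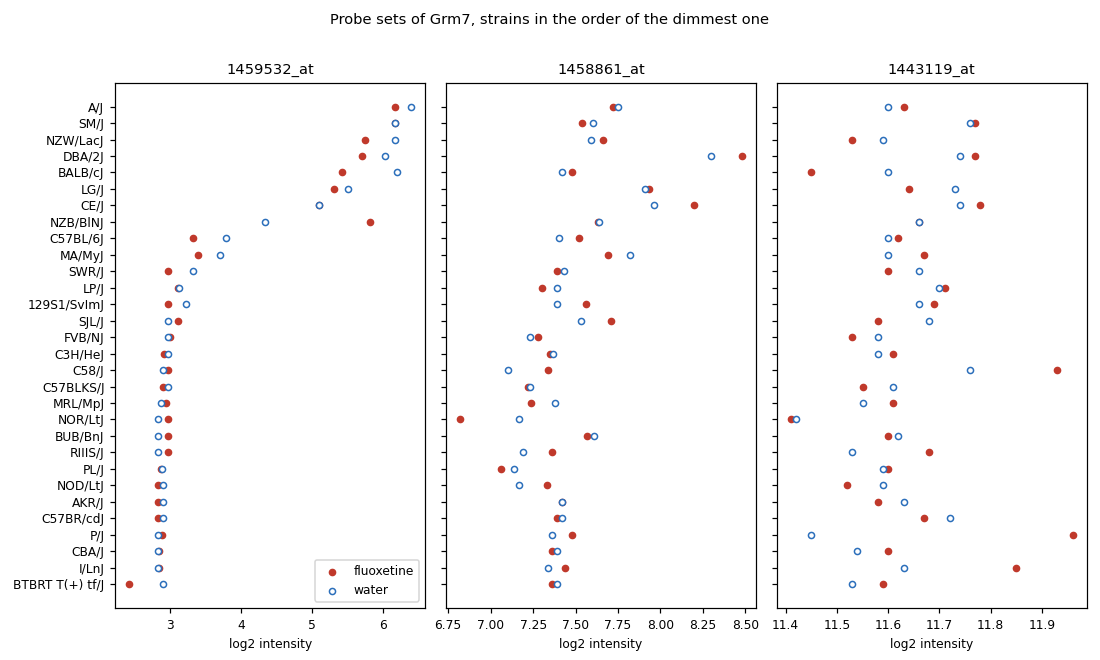
Log2 intensity (horizontal axes) of the 3 Grm7 probe sets, with strains in the order of their mean on 1459532_at, filled points for fluoxetine and open points for water. On 1459532_at 8 strains lie at 4.33 to 6.39 and 22 at 2.43 to 3.79, and CE/J and DBA/2J are toward the right in all 3 panels.

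Grm8, a group III receptor of high glutamate affinity, had a mean difference nearest to 0. Fluoxetine arrays ran from 7.99 over 8.61 to 8.98 and water arrays from 8.18 over 8.54 to 8.96 (lowest, median and highest), with A/J lowest in both groups. The water range lay inside the fluoxetine range, with means of 8.54 ± 0.254 with fluoxetine and 8.54 ± 0.184 with water (SD, n = 30 each). The difference was -0.0066 (SE 0.0373; 95% interval -0.08 to 0.07; limma adjusted p = 0.963), above 0 in 16 strains and below in 14. Its sign turned in 7 of the 30 fits that left out 1 strain. DBA/2J differed most in the upward direction, by 0.41, and CBA/J most in the downward one, by -0.39.

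Between strains Grm8 did differ (limma F = 3.66, adjusted p = 0.000487; intraclass correlation 0.554). The low end was A/J at 8.08, then I/LnJ and P/J, and the high end SWR/J at 8.88, then C57BR/cdJ and BTBRT T(+) tf/J, a 1.74-fold span. A/J was lowest in both treatments, and no adjacent strains differed by more than 2 standard errors.

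Grm5, the group I receptor, had the smallest spread of within-strain differences of the 6, an SD of 0.11. Fluoxetine arrays read 12.13 at the lowest, 12.35 at the median and 12.51 at the highest, and water arrays 12.04, 12.33 and 12.62. The fluoxetine range lay inside the water range. Means were 12.34 ± 0.0996 with fluoxetine and 12.33 ± 0.139 with water (SD, n = 30 each), and the difference was 0.02 (SE 0.0207; 95% interval -0.03 to 0.06; limma adjusted p = 0.794), above 0 in 16 strains. The extremes were 0.22 in BTBRT T(+) tf/J and -0.26 in C3H/HeJ. The other probe set, 1456119_at, gave -0.04 (SE 0.0349; limma adjusted p = 0.633), below 0 in 21 strains, so the sign of the Grm5 difference depended on the probe set.

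Grm5 differed between strains within a narrow, 1.31-fold span (limma F = 3.58, adjusted p = 0.000581; intraclass correlation 0.580). P/J was lowest at 12.10, then LG/J and SJL/J, and C58/J was highest at 12.50, then C57BL/6J and A/J. The other probe set placed BTBRT T(+) tf/J, P/J and LG/J lowest and C57BLKS/J, 129S1/SvImJ and A/J highest (limma adjusted p = 0.00226). Over strain means both probe sets correlated at r = 0.506 (permutation p = 0.00441, adjusted 0.00882; rho = 0.487, permutation p = 0.00714), and at 0.338 without P/J and LG/J. P/J and LG/J were thus among the 3 lowest strains on both, and A/J among the 3 highest.

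As a description across genes, the receptors covered the whole scale of strain variation. The SD of strain means of Grm3 was larger than that of 98.9% of tested genes, and that of Grm4 larger than 74.4%. Grm2 and Grm8 exceeded 64.7% and 63.0%, whereas Grm5 exceeded 21.4% and Grm7 10.8%. The places of Grm5 and Grm7 hold for their brightest probe sets, with SDs of 0.107 and 0.088. The SD was 0.167 on 1456119_at of Grm5 and 0.285 on 1458861_at of Grm7, against a median of 0.161 over genes. On 1459532_at of Grm7, near the floor in 22 strains, it was 1.26. For Grm3 this place rests on RIIIS/J.

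Of the 15 pairs of receptors, 1 had strain means that were correlated past the threshold after adjustment over the pairs. Grm4 and Grm5 ran in opposite directions over the 30 strains (r = -0.554, permutation p = 0.00145, adjusted p = 0.0218; rho = -0.494, permutation p = 0.00588, adjusted p = 0.0882). LG/J was high for Grm4 and low for Grm5, and C58/J was low for Grm4 and high for Grm5. Without LG/J and NZB/BlNJ, the strains farthest from the median of Grm4, r was -0.408. The value of 6.70 shared by 18 of the 60 Grm4 arrays limits this result, since the order of strains near it has little meaning. With water arrays alone r was -0.593 (adjusted p = 0.00685). Strains share ancestry and are not fully independent, and no batch was known that could be tested.

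Grm2 stood with Grm4 and against Grm5 in the same sense, but less firmly. Over all strains r was 0.413 with Grm4 and -0.391 with Grm5 (permutation test, adjusted p = 0.164 for each). With water arrays alone these were 0.553 and -0.560 (permutation test, adjusted p = 0.00685 for each), so the call depended on the arrays used. As a measure of RNA length, the 3' minus 5' signal of Actb correlated with Grm4 at r = 0.102 and with Grm5 at -0.249 (permutation test, adjusted p = 0.790 and 0.572). For Gapdh these were 0.027 and -0.202 (permutation test, adjusted p = 0.889 and 0.572).

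**Figure D5:**
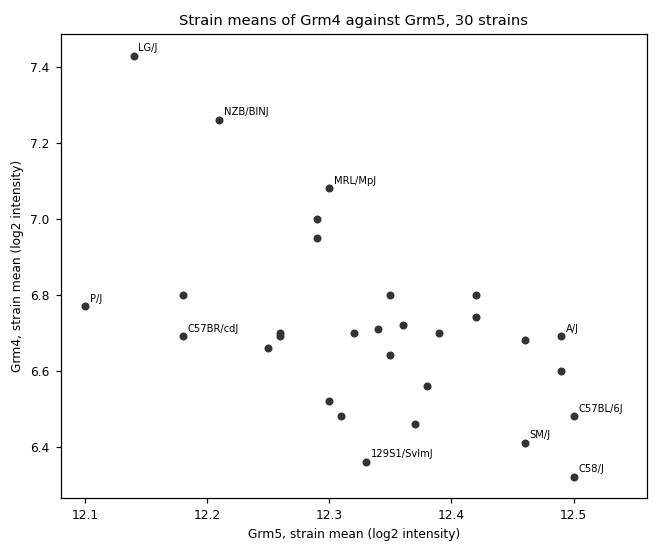
Strain means of log2 intensity for Grm4 (vertical axis) against Grm5 (horizontal axis), 1 point per strain, each the mean of its fluoxetine and water array. LG/J and NZB/BlNJ lie at the upper left and C58/J and C57BL/6J at the lower right, and r over 30 strains is -0.554.

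Each of the other receptors had its own nearest genes by strain means, given as a description over 30 strains that share ancestry and array. Grm2 ran most like Plekhh3 (r = 0.840), the anion exchanger Slc4a3 (r = 0.826) and Mgll (r = 0.808), which encodes the lipase that breaks down the endocannabinoid 2-arachidonoylglycerol. Grm4 ran most like Uqcrc1 (r = 0.816), a core subunit of respiratory complex III, Rabl6 (r = 0.781) and Sugp1 (r = 0.779). Grm5 had as its nearest gene Gria2 (r = 0.753), a subunit of AMPA glutamate receptors, followed by the sodium leak channel Nalcn (r = 0.742) and Cep68 (r = 0.738). For Grm7 these were Itpkc (r = 0.740), a kinase of inositol trisphosphate, Otud4 (r = 0.729) and Csmd3 (r = 0.688). Grm8 was nearest to Rabgef1 (r = 0.700), Naa30 (r = 0.700) and Ddx52 (r = 0.680). None of the 6 lists of 3 held another receptor of the family.

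Genes that act with the receptors were also followed, from lists written with knowledge of earlier results. Over all 11886 tested genes 6306 were below 0, 15.3% had an unadjusted p under 0.05 and 0.0589% were called, and the counts of each list stand against these. On the group I side, 8 of 12 listed scaffolds and regulators were tested, and limma called 0 with fluoxetine (3 above 0, 5 below; median -0.0067; 2 at an unadjusted p under 0.05). Homer2, a tether of group I receptors, differed by -0.09 (below 0 in 21 strains; limma adjusted p = 0.230), and Ncdn, a binding partner of Grm5, by 0.04 (limma adjusted p = 0.300). Of 18 genes of Gq signalling and endocannabinoid output 15 were tested and 0 called by limma, with 12 below 0, a median of -0.02 and 8 at an unadjusted p under 0.05. Rgs2, which switches off Gq, differed by 0.27 (above 0 in 20 strains; limma adjusted p = 0.129), and was 14.18 with fluoxetine against 12.38 with water in P/J. Dgkz, a diacylglycerol kinase, differed by -0.09 (limma adjusted p = 0.142).

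On the Gi/o side, which groups II and III use, 27 of 28 listed genes were tested, with 11 above 0, 16 below, a median of -0.0065 and 9 at an unadjusted p under 0.05. The sole call was Gnb4, a G protein beta subunit, which fell by 0.16 on the log2 scale (SE 0.0294; below 0 in 27 of 30 strains; limma adjusted p = 0.0288). This call was lost in 6 of the 30 fits that left out 1 strain (MA/MyJ, C58/J, C57BLKS/J, DBA/2J, C57BL/6J or C57BR/cdJ; highest adjusted p 0.0677), and also without the strain block, without the filter on low values and with averaged probe sets. Adcy9, an adenylyl cyclase, differed by 0.09 (limma adjusted p = 0.0959). Partners of group III receptors gave 7 tested of 8, 0 called by limma, 1 at an unadjusted p under 0.05 and a median of 2.4e-05. Among them Pick1, which binds the tail of Grm7, differed by -0.03 (limma adjusted p = 0.283), and Grip1 by 0.06 (limma adjusted p = 0.459).

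The supply and clearance of glutamate and N-acetylaspartylglutamate had 16 tested of 19 genes and 0 calls by limma, with 10 above 0, 6 below and 2 at an unadjusted p under 0.05. Slc1a1, a neuronal glutamate transporter, differed by 0.05 (limma adjusted p = 0.150), and Slc38a1, a glutamine transporter, by -0.05 (limma adjusted p = 0.276). Of 17 ionotropic glutamate receptor genes 14 were tested and 0 called by limma, 7 on either side of 0, with 1 at an unadjusted p under 0.05. Grik2, a kainate receptor subunit, differed by -0.07 (limma adjusted p = 0.169) and Grin3a, an NMDA receptor subunit, by 0.08 (limma adjusted p = 0.357). By contrast, most genes of these lists passed the F-test between strains: 7 of 8 group I partners, 13 of 15 Gq genes, 24 of 27 Gi/o genes, 5 of 7 group III partners, 15 of 16 supply genes and 13 of 14 ionotropic receptors, near the share of 88.3% over all genes.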

How the data were processed

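Cortical RNA of 30 inbred mouse strains was measured on 60 arrays, 30 for fluoxetine and 30 for water. The authors deposited 1 linear intensity per probe set and array, made with GCRMA per the submitters' processing notes without a version, which corrects background, normalizes arrays and summarizes probes. They ran from 4.21 to 72333.5 and were taken to log2 without a pseudocount. The floor, 2.07, was shared by 28.5% to 30.1% of probe sets per array, and values near it are compressed.

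Of 45101 probe sets, 34945 had 1 gene name in the platform annotation, 932 several, 9160 none, and 64 were controls. Entrez numbers of 34741 probe sets matched RefSeq's gene table, which changed 0 symbols. The brightest probe set stood for a gene. Levels of different probe sets were not ranked, since probes differ in brightness.

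limma 3.58.1 in R 4.3.3 (lmFit, eBayes, two-sided) was fitted to all 11886 genes with strain as a block, and checked on simulated data. Strain labels give the pairing: 30 of 30 fluoxetine arrays and 30 of 30 water arrays correlated best with their own strain's other array, at 0.519 to 0.855. This is a different measure from the 0.99 to 0.999 given above, which correlated plain log2 values across the 18193 genes. Correlations used 100000 permutations, two-sided. Named were all receptors with their probe sets, the 2 genes with the smallest p and any call in each pathway list, the 3 most alike genes per receptor by Pearson correlation of strain means, and the extreme strains. Alternatives changed the block, the filter, the choice of probe set, the centring, the variance prior and the strains used. The receptors and the gene lists were chosen with earlier results of these data known. No batch was entered, since neither labels nor headers used here name one.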

Additional observations from a re-analysis of the deposited data

How the results depend on the processing

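The number of receptors called with fluoxetine was 0 under all 38 alternatives, and between strains it was 4 to 6, with 4 when arrays were centred on their medians and 6 without P/J and RIIIS/J, a setting chosen after seeing the data. Leaving out 1 strain at a time gave 4 to 6 as well. Over all genes, the 7 calls with fluoxetine became 0 without the strain block (no pairing), 1 without a filter on low values, 0 when a gene's probe sets were averaged and 37 without P/J and RIIIS/J. Leaving out 1 strain gave 0 (without C57BLKS/J or without C58/J) to 21 (without RIIIS/J), with 1 when MA/MyJ, DBA/2J, C57BL/6J or C57BR/cdJ was left out. Without the block every receptor had a limma adjusted p of 0.9999. Between strains 10500 genes became 18551 when every probe set counted as its own feature, a change set by the larger number of features, and leaving out 1 strain gave 10313 to 10641. The 1 correlated pair became 3 with water arrays alone and 2 without P/J and RIIIS/J, where Grm2 and Grm5 joined (r = -0.510, permutation test, adjusted p = 0.0408). The cause of these shifts was not tested. Averaged probe sets turned the Grm5 difference to -0.01 and that of Grm7 to -0.0042. With 1 array per strain and treatment, a response of a single strain has no replicate, and a batch that held a strain's whole pair of arrays cannot be told apart from strain. Values of 1459532_at and of 1431344_at near the floor have no order.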
